A study of Mus musculus with 2 samples.

Results

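Genes of glucose and lactate transport were followed in the gastrocnemius, the large muscle of the calf, of C57BL/6 mice aged 8 weeks. The 10 genes were chosen by name out of the 34745 in the count table: the glucose transporters Slc2a1, Slc2a3, Slc2a4 and Slc2a12, the regulators of their trafficking Tbc1d1, Tbc1d4 and Txnip, the monocarboxylate transporters Slc16a1 and Slc16a3, and their chaperone Bsg. There were 2 RNA-seq libraries, 1 labelled Cry2scko and 1 from Cry2flox/flox muscle, written Cry2flox here. A floxed allele carries recombinase sites around a piece of a gene, and the product of Cry2, cryptochrome 2, represses transcription in the circadian clock. What scko stands for, the Cre driver, the cell type deleted, the time of day and any pooling of animals are not given in the labels.

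Muscle takes up glucose mainly through GLUT4, the product of Slc2a4, which rests in intracellular vesicles and moves to the cell surface after insulin or contraction. The Rab GTPase-activating proteins TBC1D4 (AS160) and TBC1D1 hold these vesicles back until Akt or AMPK phosphorylates them, and TXNIP, an alpha-arrestin whose gene is switched on by glucose, promotes the removal of GLUT1 and GLUT4 from the surface. Lactate crosses the membrane through MCT1 (Slc16a1), linked to uptake in oxidative fibres, and MCT4 (Slc16a3), linked to export from glycolytic fibres, and both need the glycoprotein basigin (Bsg) to reach the surface.

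There was 1 library per genotype and hence no replicate, so every comparison describes this pair of libraries and no p-value is given. Ratios are Cry2scko over Cry2flox. Their 95% intervals, and the limits for 0 reads, reflect counting error alone, and may understate it since amplified reads carried no molecular identifiers. The libraries held 16423884 reads (Cry2scko) and 18909433 reads (Cry2flox). The targeted gene, Cry2, was at 133 reads or 8.04 CPM (a level corrected for depth) in Cry2scko, against 676 reads or 36 CPM in Cry2flox. The 8 fast glycolytic fibre markers, Myh4 among them, summed to 120532 CPM in Cry2scko and 124732 CPM in Cry2flox, and none was at 0 reads.

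None of the 10 genes differed by 2-fold. Txnip and Bsg were higher in Cry2scko beyond counting error, Tbc1d1 and Slc16a3 were lower, and the main muscle glucose transporter Slc2a4 was close to equal. Of the 10 genes, 0 were called higher and 0 lower, against 4.88% of the 12832 genes tested (3.37% higher and 1.51% lower). A gene was tested from a mean of 1 CPM, and called if its ratio reached 2-fold with an interval that excluded 1. All 10 genes were tested. The interval alone excluded 1 in 4 of them, 2 higher and 2 lower, against 33.5% of all genes tested (16.3% higher and 17.3% lower), so the share is near that of genes at large. The median level was 41.9 CPM over the 10 genes and 13.4 CPM over all genes tested. Their median log2 ratio was -0.16, against 0.00 over all genes tested, whose quartiles were -0.17 and 0.18.

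**Figure D1:**
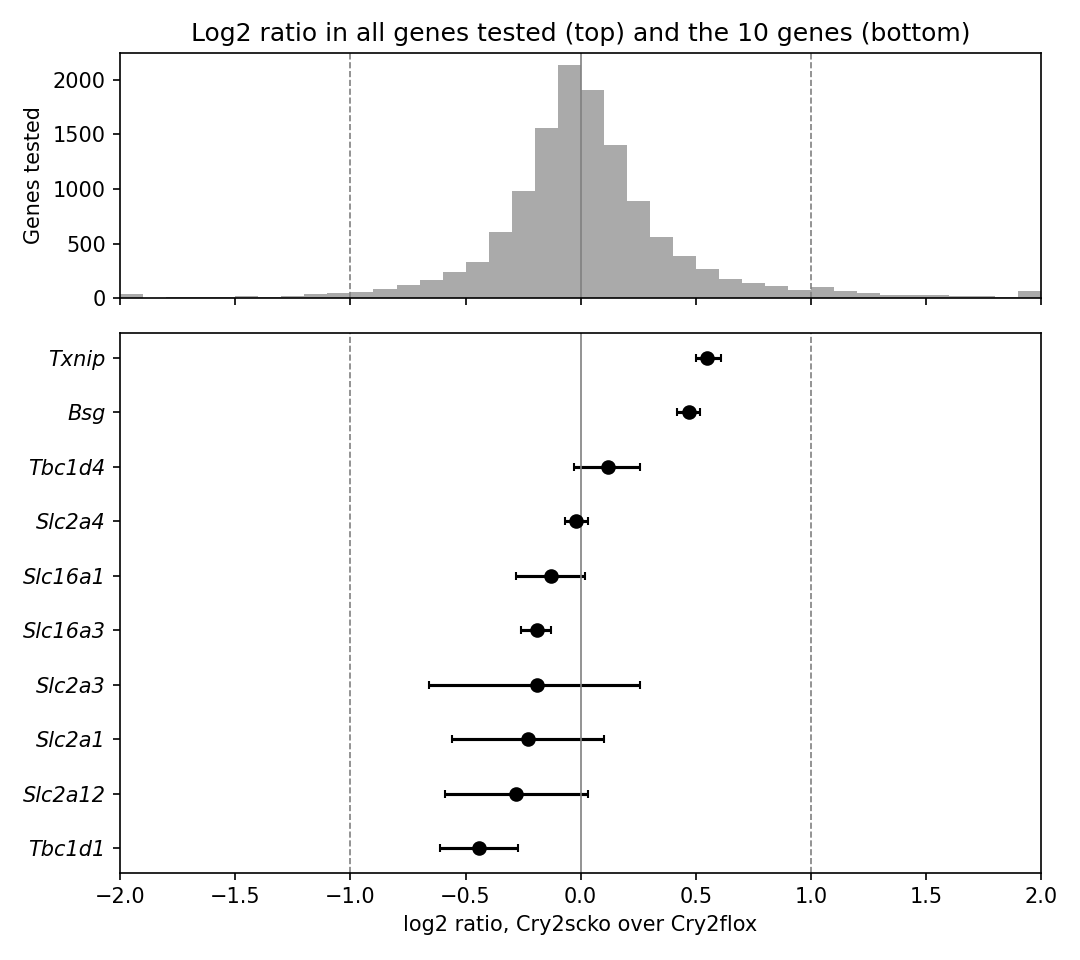
Log2 ratio of Cry2scko over Cry2flox. The upper panel counts all 12832 genes tested in bins of log2 ratio, with genes beyond either end of the axis in the end bins. The lower panel gives the 10 genes with 95% counting intervals, and dashed lines mark 2-fold. Txnip (0.55) and Bsg (0.47) sit highest and Tbc1d1 (-0.44) lowest, all inside the 2-fold lines.

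Txnip is shown with the stretch before its start because it had the highest ratio of the 10 and its promoter carries a known type of glucose-responsive element, a pair of E-box-like boxes 5 bases apart. Slc16a1 and Arrdc4 are shown beside it for their E-box, CACGTG, the sequence that clock activators also bind. Arrdc4 encodes an alpha-arrestin related to TXNIP. The stretches come from RefSeq on GRCm38.p6, are 250 bases long, end at the base before the annotated start and run 5′ to 3′ on the strand of the gene. Capitals mark the motif.
Txnip (chr3:96557707-96557956, plus strand): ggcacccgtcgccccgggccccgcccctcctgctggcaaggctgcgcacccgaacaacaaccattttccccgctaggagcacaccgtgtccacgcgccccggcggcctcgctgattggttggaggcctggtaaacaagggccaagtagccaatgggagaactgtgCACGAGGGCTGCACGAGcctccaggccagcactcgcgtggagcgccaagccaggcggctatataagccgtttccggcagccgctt
Slc16a1 (chr3:104638414-104638663, plus strand): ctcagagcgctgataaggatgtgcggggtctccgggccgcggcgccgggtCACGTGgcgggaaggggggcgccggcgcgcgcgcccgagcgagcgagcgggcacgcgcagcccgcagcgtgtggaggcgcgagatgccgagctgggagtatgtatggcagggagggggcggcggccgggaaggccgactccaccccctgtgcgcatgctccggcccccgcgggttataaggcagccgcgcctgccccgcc
Arrdc4 (chr7:68749239-68749488, minus strand): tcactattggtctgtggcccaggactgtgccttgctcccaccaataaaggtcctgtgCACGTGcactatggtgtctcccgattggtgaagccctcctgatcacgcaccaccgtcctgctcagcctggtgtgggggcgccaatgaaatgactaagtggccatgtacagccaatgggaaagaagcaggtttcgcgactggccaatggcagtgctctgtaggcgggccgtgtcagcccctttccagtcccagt

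The motif in Txnip begins 85 bases before the start, and each box differs from CACGTG by T5A, counted from the first base of the box. CACGTG begins 200 bases before the start in Slc16a1 and 193 bases before it in Arrdc4. RefSeq windows, which also hold 50 bases after the start, were given for 7 of the 10 genes in 8 windows, since Tbc1d1 has 2 annotated starts. Those of Slc2a3, Slc2a4 and Bsg were not used here. CACGTG, which reads the same on both strands, was in the window of Slc16a1 alone among these genes, and in 7.15% of all 32851 windows. A pair of CACGTG boxes 5 bases apart with up to 1 mismatch in each, also the same on both strands and overlapping the first motif where a box is exact, was in the window of Txnip alone, and in 0.414% of all windows. These are matches of letters in one window, not measured sites.

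Among the glucose transporters, Slc2a4 (ENSMUSG00000018566, GRCm38 chromosome 11, 69942539 to 69948188, minus strand) was read 5627 times (340 CPM) in Cry2scko and 6469 times (345 CPM) in Cry2flox. Its log2 ratio was -0.02 (95% interval -0.07 to 0.03), close to equal within narrow bounds. Per length it stood at 54.3 FPKM (the deposited length-scaled level) in Cry2scko and 54.2 FPKM in Cry2flox. Slc2a4 alone made up 89.9% of the FPKM summed over 12 GLUT genes in Cry2scko and 89.2% in Cry2flox. With merged exon lengths in place of the deposited ones, the shares were 92.2% in Cry2scko and 91.6% in Cry2flox.

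The other 3 glucose transporters were low, and each of their intervals held a ratio of 1. Slc2a12, which encodes GLUT12, a transporter that responds to insulin, had 153 reads or 2.04 FPKM in Cry2scko, against 211 reads or 2.44 FPKM in Cry2flox, at a log2 ratio of -0.28 (-0.59 to 0.03). It shares 9.61% of its exon bases with Tbpl1 on the opposite strand, which had 240 reads in Cry2scko and 255 in Cry2flox. Slc2a1 (GLUT1, the transporter of basal uptake, found in endothelium and perineurium) had 139 reads or 1.62 FPKM in Cry2scko and 185 reads or 1.87 FPKM in Cry2flox, at -0.23 (-0.56 to 0.10). Slc2a3 encodes GLUT3, a high-affinity transporter of neurons, platelets and white blood cells. It had 73 reads or 0.407 FPKM in Cry2scko and 95 reads or 0.460 FPKM in Cry2flox, at -0.19 (-0.66 to 0.26). All 4 glucose transporters thus had a ratio below 1, that of Slc2a4 only under some scalings (log2 ratios of -0.03 to 0.01), and at these depths no difference was detectable in any of them. In whole muscle, fewer cells of a type and less RNA per cell cannot be told apart.

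Of the trafficking regulators, Txnip (ENSMUSG00000038393, chromosome 3, 96557957 to 96561883, plus strand) was 1.47-fold higher. It had 5394 reads, 326 CPM or 47.5 FPKM in Cry2scko, against 4172 reads, 222 CPM or 31.9 FPKM in Cry2flox. The log2 ratio was 0.55 (0.50 to 0.61), and 8.11% of the genes tested had a higher one. The antisense gene Gm15441 shares 606 exon bases with Txnip, or 19.4% of its exons. Gm15441 had 5 reads in Cry2scko and 9 in Cry2flox. Strand use in the counting is not given in the sources used here, so reads over the shared bases cannot be assigned to a strand, and their part in the Txnip ratio was not tested.

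Tbc1d1 (ENSMUSG00000029174, chromosome 5, 64156305 to 64351486, plus strand) had the lowest ratio of the 10, 1.35-fold lower. It had 488 reads, 29.5 CPM or 2.81 FPKM in Cry2scko, against 751 reads, 40.0 CPM or 3.75 FPKM in Cry2flox. Its log2 ratio was -0.44 (-0.61 to -0.27), and 8.18% of the genes tested had a lower one. Its relative Tbc1d4 (ENSMUSG00000033083, chromosome 14, 101442360 to 101609191, minus strand) did not follow. Tbc1d4 had 746 reads, 45.1 CPM or 2.85 FPKM in Cry2scko, against 781 reads, 41.6 CPM or 2.59 FPKM in Cry2flox, at 0.12 (-0.03 to 0.26).

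The balance of the pair therefore differed between the libraries. In FPKM, Tbc1d1 over Tbc1d4 was 0.987 in Cry2scko and 1.45 in Cry2flox, a log2 difference of -0.56 (-0.77 to -0.34, counting error by a normal approximation). This difference does not depend on library scaling or gene length, but the ratio within a library does. With merged exon lengths it was 0.678 in Cry2scko and 0.997 in Cry2flox. In mice, TBC1D1 protein is known to be more abundant in fast glycolytic muscle and TBC1D4 in the slow soleus. Of 8 slow fibre markers, 6 were called higher in Cry2scko, with a summed level of 2963 CPM in Cry2scko and 1397 CPM in Cry2flox and none at 0 reads. Tnni1, slow troponin I, had the largest ratio of these, 1.61 (1.45 to 1.77). The fast markers had 0 of 8 called and a median log2 ratio of 0.00. Their intervals lay above a ratio of 1 in 3 and below it in 3 (75% in all, against 33.5% of all genes tested). Their median level was 8967 CPM. Myh1 had the largest ratio of these in size, -0.22 (-0.23 to -0.20). The part of fibre composition in the balance of Tbc1d1 and Tbc1d4 was not tested.

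**Figure D2:**
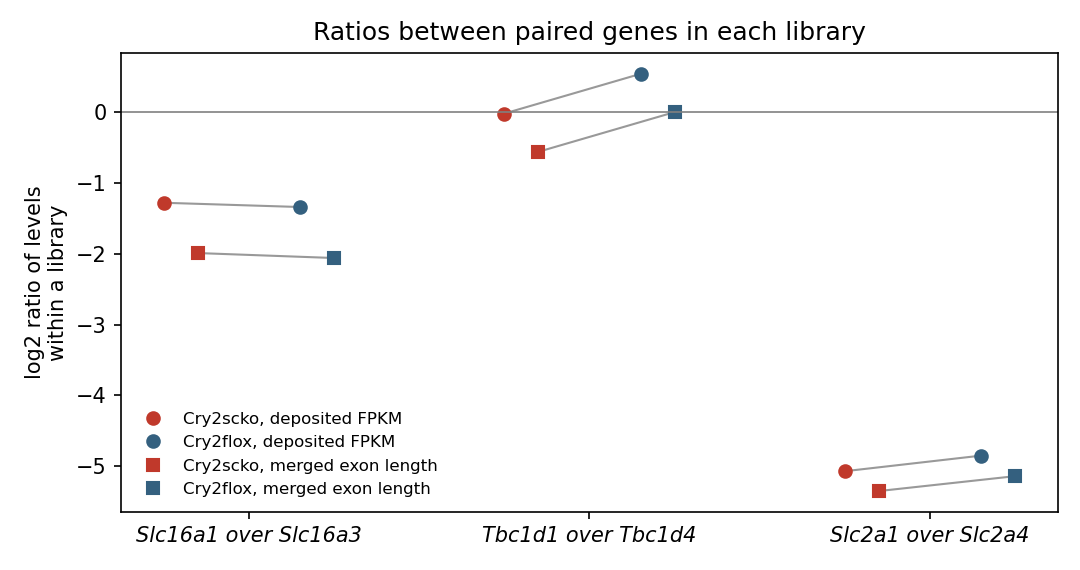
Log2 ratio of levels between paired genes within each library, Cry2scko (red) left of Cry2flox (blue). Circles use the deposited FPKM and squares use merged exon lengths, with a line joining the libraries. Tbc1d1 over Tbc1d4 is lower in Cry2scko by 0.56 on either scale, while Slc16a1 over Slc16a3 is nearly level.

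The lactate transporters showed small ratios in the same direction. Slc16a3 (ENSMUSG00000025161, chromosome 11, 120948480 to 120960868, plus strand) had 3065 reads, 185 CPM or 21.3 FPKM in Cry2scko, against 3979 reads, 212 CPM or 24.0 FPKM in Cry2flox. At a log2 ratio of -0.19 (-0.26 to -0.13) it was 1.14-fold lower, and 22.4% of the genes tested had a lower ratio. Slc16a1 (ENSMUSG00000032902, chromosome 3, 104638668 to 104658462, plus strand) had 640 reads, 38.7 CPM or 8.80 FPKM in Cry2scko, against 796 reads, 42.4 CPM or 9.51 FPKM in Cry2flox. Its log2 ratio of -0.13 had an interval that held 0 (-0.28 to 0.02). Slc16a1 over Slc16a3 was 0.413 in Cry2scko and 0.395 in Cry2flox in FPKM, a log2 difference of 0.06 (-0.10 to 0.23). MCT4 transcripts thus exceeded MCT1 transcripts in both libraries, and no difference in their balance was detectable at these depths. The part of fibre composition in this balance was not tested.

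Bsg (ENSMUSG00000023175, chromosome 10, 79704491 to 79711969, plus strand) was 1.38-fold higher, while the transporters it carries to the surface had ratios below 1. It had 7689 reads, 465 CPM or 122 FPKM in Cry2scko, against 6308 reads, 336 CPM or 87.1 FPKM in Cry2flox. Its log2 ratio was 0.47 (0.42 to 0.52), and 10.1% of the genes tested had a higher one. No other annotated gene shares exon bases with Bsg.

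Basigin and TXNIP are also made by cells other than muscle fibres. Of 8 lymphocyte markers, 7 were called higher in Cry2scko, with a summed level of 98.8 CPM in Cry2scko and 38.8 CPM in Cry2flox and none at 0 reads. The largest ratio was that of Cd79b, a B cell receptor chain, at 2.04 (1.65 to 2.46). Erythrocyte markers had 0 of 5 tested called and summed to 57.7 CPM in Cry2scko and 47.2 CPM in Cry2flox. Slc4a1 was at 5 reads in Cry2scko and 0 in Cry2flox, and Alas2 had the largest ratio in size, -0.75 (-1.74 to 0.14). The other 4 tested had ratios above 1, with intervals that excluded 1 for Hba-a2, at 0.53 (0.15 to 0.92), and Hbb-bs, at 0.35 (0.17 to 0.52), both named after their values were seen. The part of these cells in the ratios of Txnip and Bsg was not tested.

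Adipocytes also carry GLUT4. Of 7 adipocyte markers tested, 2 were called lower, 7 had a ratio below 1 and 4 had an interval below 1, and none of 8 listed was at 0 reads. Their summed level was 299 CPM in Cry2scko and 321 CPM in Cry2flox, most of it Fabp4, with 274 CPM in Cry2scko and 278 CPM in Cry2flox. Pck1 had the largest ratio in size, -1.27 (-1.78 to -0.81). Fibroblast markers had 1 of 7 called lower (14.3%, against 1.51% of all genes tested), Col1a1 at -1.13 (-1.19 to -1.06). None had a ratio above 1, and 6 had an interval below 1 (85.7%, against 33.5% with an interval on either side among all genes tested). Col1a2, named after its values were seen, was just short of the call at -0.99 (-1.04 to -0.93). The list summed to 1051 CPM in Cry2scko and 1646 CPM in Cry2flox with none at 0. The part of these cells in the level of Slc2a4 was not tested. Endothelial markers, macrophage markers, and Schwann cell and perineurial markers had 0 of 8 called in each list. Their largest ratios in size were those of Cldn5 at 0.84 (0.55 to 1.14), Adgre1 at 0.76 (-0.05 to 1.62) and Cldn1 at -0.62 (-1.17 to -0.11). The list medians were 0.08, 0.04 and -0.02. Intervals lay above a ratio of 1 in 2 endothelial, 1 macrophage and 0 Schwann cell and perineurial markers, and below it in 3, 3 and 2. These shares were 62.5%, 50% and 25%, against 33.5% of all genes tested. Platelet markers, relevant to Slc2a3, summed to 3.14 CPM in Cry2scko and 4.15 CPM in Cry2flox, with 2 of 6 tested and 1 called, Pf4 at -1.04 (-1.92 to -0.26). The other platelet marker tested, Itga2b, named after its values were seen, went the other way. It had 33 reads in Cry2scko and 19 in Cry2flox, at 0.96 (0.12 to 1.88). Gp9 and Treml1 had 0 reads in both libraries, and Gp1bb and Ppbp had 0 in Cry2scko, against 13 reads of Gp1bb and 1 read of Ppbp in Cry2flox. White blood cells are also relevant to Slc2a3, and the lymphocyte markers summed to 98.8 CPM in Cry2scko and 38.8 CPM in Cry2flox. The part of platelets and white blood cells in the ratio of Slc2a3 was not tested.

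Levels of the 10 genes spanned a wide range within a library. In deposited FPKM the order in Cry2scko was Bsg, Slc2a4, Txnip, Slc16a3, Slc16a1, Tbc1d4, Tbc1d1, Slc2a12, Slc2a1 and Slc2a3. The counting intervals of neighbours overlapped for Tbc1d4 with Tbc1d1 and for Slc2a12 with Slc2a1. In Cry2flox the order was the same except that Tbc1d1 stood above Tbc1d4, and the intervals overlapped for Tbc1d4 with Slc2a12 and for Slc2a12 with Slc2a1. The gene length behind the deposited FPKM is up to 2.21 times the merged exon length among the 10 genes (Txnip). It is 6915 bases for Txnip and 6311 bases for Slc2a4, longer than either annotated gene from end to end. For these genes it is therefore not the length of any annotated transcript. With merged exon lengths Txnip stood above Slc2a4 in Cry2scko, at 104 and 97.8 scaled reads per kilobase, and below it in Cry2flox, at 71.1 and 99.1. Orders of genes within a library that are this close therefore depend on the length used.

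**Figure D3:**
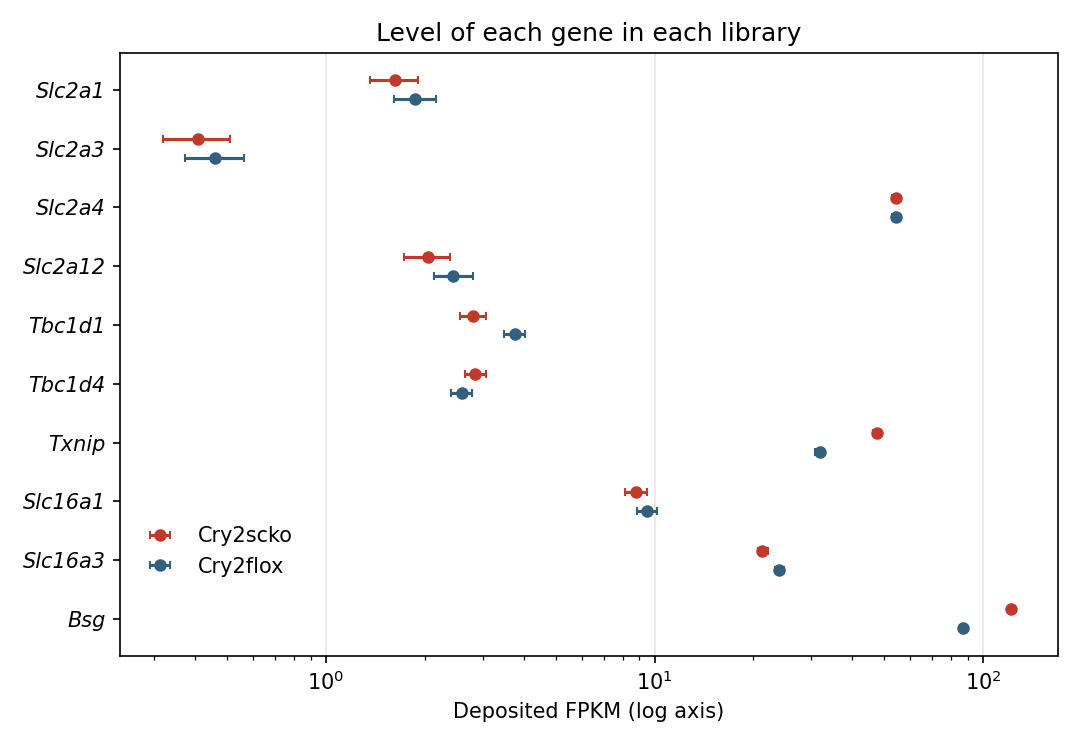
Deposited FPKM (log axis) of each gene in Cry2scko (red, upper) and Cry2flox (blue, lower), with 95% Poisson counting intervals, which are narrower than the point for the genes with most reads. Bsg is highest, at 122 FPKM in Cry2scko and 87.1 FPKM in Cry2flox, and Slc2a3 lowest, at 0.407 FPKM in Cry2scko and 0.460 FPKM in Cry2flox.

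Among other genes of the pathway, a single one reached 2-fold, and smaller ratios beyond counting error went both ways. Over 6 lists, 61 of 74 genes were tested, 1 was called higher and 0 lower (1.64%, against 4.88% of all genes tested), and the median log2 ratio was -0.05. The interval alone excluded 1 in 12 higher and 17 lower genes, or 47.5%, against 33.5% of all genes tested. These genes had more reads, with a median of 41.8 CPM against 13.4 CPM over all genes tested, and a deeper count gives a narrower interval. Other GLUT genes were low, with 2 of 8 tested, 0 called and a median log2 ratio of 0.33. Slc2a8 (GLUT8, an intracellular transporter) had 7.32 CPM in Cry2scko and 6.92 CPM in Cry2flox at 0.08 (-0.29 to 0.45), and Slc2a10 (GLUT10) had 2.00 CPM in Cry2scko and 1.33 CPM in Cry2flox at 0.58 (-0.21 to 1.39). Slc2a2, Slc2a5 and Slc2a7 had 0 reads in both libraries, which allows up to 0.181 CPM in Cry2scko and 0.160 CPM in Cry2flox.

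Other Slc16 genes and embigin, a relative of basigin that partners MCT2, had 7 of 13 genes tested, 0 called and a median of 0.25. The interval lay above a ratio of 1 in 1 gene and below it in 0 (14.3%, against 33.5% of all genes tested). This gene was Slc16a9, named after its values were seen. It had 125 reads in Cry2scko and 98 in Cry2flox, at 0.53 (0.14 to 0.93). Slc16a10, an aromatic amino acid transporter, had 49.2 CPM in Cry2scko and 50.8 CPM in Cry2flox, with a log2 ratio of -0.05. Slc16a6 had 15.5 CPM in Cry2scko and 13.0 CPM in Cry2flox, at 0.25 (-0.01 to 0.51). Embigin (Emb), named after its values were seen, had 61 reads in Cry2scko and 49 in Cry2flox, at 0.50 (-0.07 to 1.07).

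Genes of GLUT4 vesicles and their docking had 16 of 16 tested, 0 called, ratios from -0.17 to 0.46 and a median of -0.06. Of these, 2 had an interval above a ratio of 1 and 3 below it (31.2% in all, against 33.5% of all genes tested). Rab10, the GTPase that TBC1D4 acts on in fat cells, had 367 CPM in Cry2scko and 396 CPM in Cry2flox at -0.11 (-0.16 to -0.06). Rac1, which controls actin remodelling for GLUT4 movement, had 166 CPM in Cry2scko and 160 CPM in Cry2flox at 0.05 (-0.02 to 0.13). Rab8a, named after its values were seen, had the highest ratio of this list, 0.46 (0.22 to 0.69).

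Insulin and AMPK signalling genes upstream of Tbc1d1 and Tbc1d4 had 1 of 16 called (6.25%, against 4.88% of all genes tested) and a median of -0.09. Their intervals lay above a ratio of 1 in 4 genes and below it in 7 (68.8% in all, against 33.5% of all genes tested), at a median level of 56.7 CPM. The called gene was Pik3ca, the catalytic alpha subunit of PI3 kinase, with 1267 reads in Cry2scko and 711 in Cry2flox, at 1.02 (0.88 to 1.15), just past the threshold. Further genes of this list were named after their values were seen. Of the insulin genes, Akt1 was at -0.34 (-0.47 to -0.21), Irs1 at -0.23 (-0.32 to -0.15) and Pdpk1 at -0.23 (-0.39 to -0.08). In the other direction, Irs2 was at 0.48 (0.27 to 0.69) and Akt2 at 0.11 (0.01 to 0.21). Among AMPK subunit genes, Prkab2 was at -0.10 (-0.17 to -0.03) and Prkab1 at -0.26 (-0.57 to 0.05). The catalytic Prkaa2 was at -0.22 (-0.28 to -0.17), and the regulatory Prkag3, known from fast fibres, was at -0.29 (-0.36 to -0.22). Relatives went either way, with Prkaa1 at 0.02 (-0.20 to 0.24) and Prkag1 at 0.17 (0.02 to 0.33), while Prkag2 was at -0.31 (-0.58 to -0.04).

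Transcription factors of Slc2a4 and Txnip and the arrestin-domain relatives had 0 of 13 called and a median of -0.05. Intervals lay above a ratio of 1 in 2 genes and below it in 5 (53.8% in all, against 33.5% of all genes tested), at a median level of 55.7 CPM. Mef2c and Mef2d, of the MEF2 factors known to bind the Slc2a4 promoter, were at 0.09 (0.04 to 0.15) and -0.05 (-0.12 to 0.02). Named after their values were seen, Mef2a was at -0.14 (-0.23 to -0.05), Klf15 at -0.32 (-0.49 to -0.16) and Ppargc1a at -0.22 (-0.38 to -0.07). Hif1a was at -0.14 (-0.32 to 0.05). The glucose-sensing factors for Txnip, named after their values were seen, each had an interval that held a ratio of 1, widest for Mlx. Mlxip (MondoA) was at 0.01 (-0.10 to 0.12), Mlxipl (ChREBP) at 0.04 (-0.06 to 0.14) and their partner Mlx at 0.15 (-0.18 to 0.47). Arrdc4, another known target of these factors, had 284 reads in Cry2scko and 302 in Cry2flox at 0.09 (-0.14 to 0.33), below the 0.55 of Txnip. The other arrestin-domain relatives, also named afterwards, went either way. Arrdc3 had 766 reads in Cry2scko and 1223 in Cry2flox at -0.49 (-0.62 to -0.36), and Arrdc2 was at -0.33 (-0.43 to -0.22). Arrdc1 had 104 reads in Cry2scko and 74 in Cry2flox at 0.67 (0.23 to 1.12), the highest ratio of this list.

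Enzymes and carriers next to transport had 7 of 8 tested, 0 called and a median of 0.08. Of these, 3 had an interval above a ratio of 1 and 2 below it (71.4% in all, against 33.5% of all genes tested). Their median level was 141 CPM. Ldha, the muscle subunit of lactate dehydrogenase, had 2027 CPM in Cry2scko and 2272 CPM in Cry2flox at -0.16 (-0.19 to -0.14). Hk2, which traps glucose by phosphorylation, had 267 CPM in Cry2scko and 326 CPM in Cry2flox at -0.29 (-0.34 to -0.23). Named after their values were seen, Ldhb, the heart-type subunit, was at 0.28 (0.20 to 0.36) and Ldhd at 0.34 (0.18 to 0.50). Mpc1, a subunit of the mitochondrial pyruvate carrier, also named afterwards, was at 0.57 (0.39 to 0.76).

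**Figure D4:**
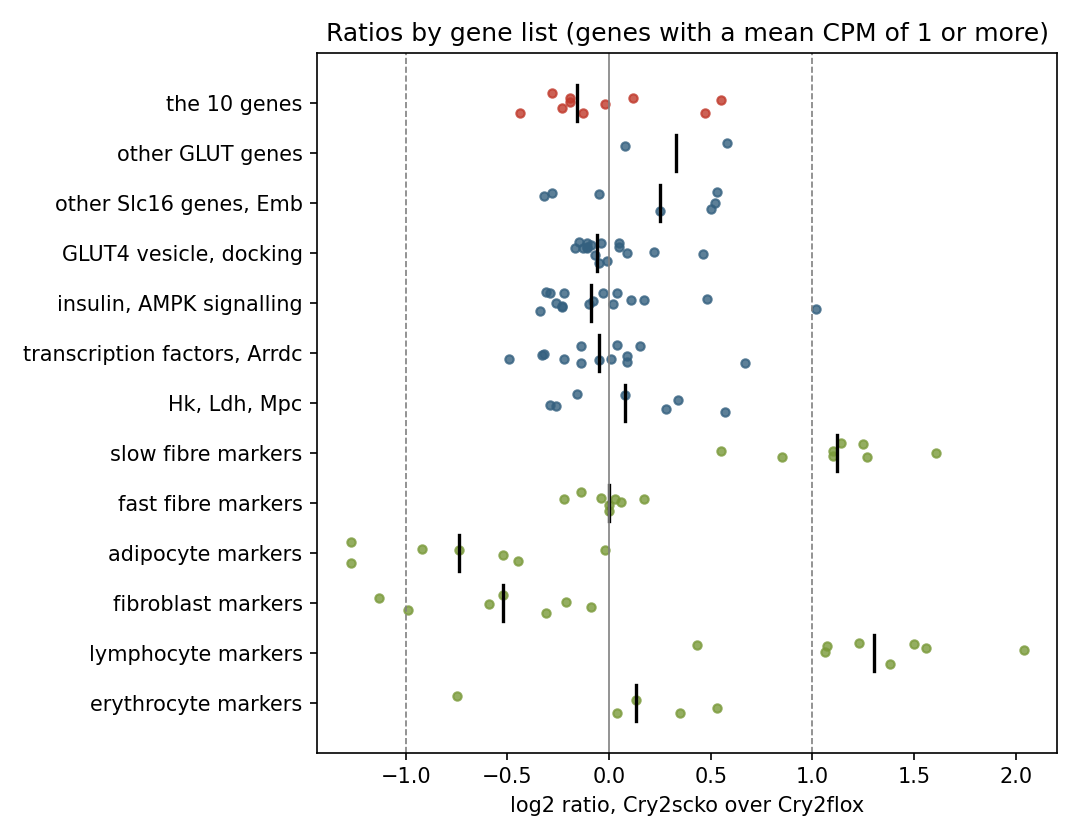
Log2 ratio of Cry2scko over Cry2flox for genes tested in each list drawn, with points for genes, black bars for medians and dashed lines at 2-fold. Endothelial, macrophage and platelet markers, and Schwann cell and perineurial markers, are not drawn. The 10 genes (red) have a median of -0.16 and the 6 pathway lists (blue) medians of -0.09 to 0.33, with Pik3ca alone past 2-fold among these. Of the cell type markers (green), slow fibre and lymphocyte markers lie to the right. Adipocyte and fibroblast markers lie to the left, with medians of -0.74 and -0.52.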

How the data were processed

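RNA-seq libraries of mouse gastrocnemius, 1 per genotype, were grouped by the genotype label. The authors deposited whole-number read counts per gene, not normalised, and FPKM values, per the file headers. CASAVA, HISAT2 2.0.4, StringTie 1.3.0 and GRCm38 are named in the submitters' processing notes; the read counter, annotation release and strand setting are not given in the sources used here. Symbols, exon overlaps and merged exon lengths came from GENCODE M21 (GRCm38), which named 34344 of 34745 gene IDs. Counts were scaled with TMM factors, 1.01 for Cry2scko and 0.993 for Cry2flox (edgeR 4.0.16, R 4.3.3). Log2 ratios had 0.5 reads added, and intervals are Clopper-Pearson (95%) on the share of reads in Cry2scko. They were computed over all genes with Python 3.11.15, scipy 1.17.1 and pandas 2.3.3. The code was checked on simulated counts with counting error alone, a check that cannot speak to variation between animals or from amplification. The deposited FPKM implied the same gene length in both libraries for 100% of 16284 genes within 0.1 percent. DESeq2 1.42.0 served for alternative scaling. Text names all 10 genes, and of each pathway list the called genes, otherwise the 2 most abundant; of each cell type list, the largest ratio in size. The 10 genes and all lists were chosen with earlier results of these data known.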

Additional observations from a re-analysis of the deposited data

How the results depend on the processing

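Total-count scaling, DESeq2 size factors, scaling that left out the 20 most abundant and all mitochondrially encoded genes, deposited FPKM with 0.1 added, 5 reads added, no filter, a mean CPM of at least 5 and a fold threshold of 1.5 each left 0 of the 10 genes called. Under the scalings and added values Txnip ranged in log2 ratio from 0.55 to 0.58, Bsg from 0.46 to 0.50, Slc16a3 from -0.20 to -0.16 and Tbc1d1 from -0.45 to -0.41, while Slc2a4 lay between -0.03 and 0.01. The intervals of the first 4 excluded a ratio of 1 under all 3 other scalings, by a rule without a fold threshold that was added after the data were seen. Pik3ca stayed called throughout, at 1.01 to 1.04, and a threshold of 1.5 added Arrdc1, making 2 pathway genes. Of 20 levels in FPKM, 16 moved beyond counting error with merged exon lengths. No library could be left out, and no paired analysis was possible because there is 1 library per genotype. Depth limits Slc2a1, Slc2a3 and Slc2a12 most, with 73 to 211 reads.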
